A study of Mus musculus with 4 samples.

Results

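Genes of urea transport and of osmolyte handling in the renal medulla were followed on mouse kidney sections by spatial transcriptomics. The 7 genes were chosen by name from the 32285 genes counted in every section: the urea transporters Slc14a1 and Slc14a2, the aldose reductase Akr1b3, the osmolyte carriers Slc5a3, Slc6a12 and Slc6a6, and the transcription factor Nfat5. The samples were left kidneys of male wild-type C57BL/6J mice aged 7 to 8 weeks, either normal (2 sections) or ischemic (2 sections). The ischemic kidneys were taken 24 h after 30 min of bilateral ischemia. All 4 sections were 10 µm thick and lay on Visium slides, glass slides on which barcoded spots capture the RNA of the tissue above them. The sample labels used here do not say which sections shared a slide. Each spot covers several cells, so all values belong to small tissue regions. The labels do not say from which mouse a section was taken, so the p-values cannot be read as the spread between mice. Those for whole sections measure only the spread between these sections, which may be technical. Those by zone took the 20 sums of section and zone as independent, although zones of 1 section share that section, and did not pair zones by section. They are therefore not a measure of the spread between sections.

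The medulla concentrates urine by holding salt and urea at high levels, and its cells balance that load with organic osmolytes. Slc14a2 encodes the UT-A urea transporters of the collecting duct and the thin descending limb. Slc14a1 encodes UT-B, a urea transporter whose sites include the descending vasa recta and red blood cells. Akr1b3 makes sorbitol from glucose. Slc5a3 takes up myo-inositol, Slc6a12 takes up betaine and Slc6a6 takes up taurine. Nfat5, also called TonEBP, is the factor that binds the tonicity-responsive enhancer (TonE) of several such genes when tonicity rises.

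On the mm10 build (GRCm38, GENCODE M21 annotation), Akr1b3 lies on the minus strand at chr6:34302434-34317478. Slc6a12 (chr6:121343076-121365775), Slc6a6 (chr6:91684053-91759066), Slc5a3 (chr16:92058322-92087473) and Nfat5 (chr8:107293470-107379517) lie on the plus strand. Slc5a3 shares 159 exon bases with Mrps6, a mitochondrial ribosomal protein gene on the same strand, so the counts of this pair can be split in an uncertain way. Promoters were found in the RefSeq table (GRCm38.p6) for 3 of the 7 genes, Slc5a3, Slc6a12 and Nfat5. The TonE consensus was searched on both strands in the 300 bases around each RefSeq start, together with its core TGGAAA, which every TonE match holds. TonE was present in 4.96% and TGGAAA in 21.43% of all 32851 promoters. Slc6a12 held 1 match, whose first base lay 75 bases before its RefSeq start on the plus strand. That RefSeq start is not the GENCODE start at chr6:121343076 but lies upstream of it, the 250 bases before it ending at chr6:121342573. Slc5a3 and Nfat5 held no match in this window, which says only that these letters are not there. The 250 bases upstream of the 2 carrier genes are shown because both take up osmolytes and their whole-section changes are set side by side here, with the TonE match in capitals (Slc6a12 at chr6:121342324-121342573, Slc5a3 at chr16:92058072-92058321, both on the plus strand):
Slc6a12: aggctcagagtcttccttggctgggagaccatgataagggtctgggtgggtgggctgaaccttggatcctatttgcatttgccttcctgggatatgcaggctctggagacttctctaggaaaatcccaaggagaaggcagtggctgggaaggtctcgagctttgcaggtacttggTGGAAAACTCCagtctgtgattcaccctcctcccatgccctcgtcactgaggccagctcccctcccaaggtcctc
Slc5a3: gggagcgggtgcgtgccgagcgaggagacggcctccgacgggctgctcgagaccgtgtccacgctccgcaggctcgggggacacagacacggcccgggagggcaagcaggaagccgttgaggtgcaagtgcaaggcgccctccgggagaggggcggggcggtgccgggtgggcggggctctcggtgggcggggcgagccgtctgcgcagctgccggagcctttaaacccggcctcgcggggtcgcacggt

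The sections held 2401 to 2682 tissue spots and 25957128 to 44528078 unique molecular identifiers (UMIs, each counting 1 captured RNA molecule). The median was 8656 to 16162.5 UMIs per spot. The tubular injury genes followed the labels, Havcr1 rising from 1.65 ± 0.687 to 1284 ± 5.55 CPM (UMIs of a gene per 1000000 UMIs) and Lcn2 from 6.95 ± 1.44 to 3039 ± 347 CPM (n = 2 each). Levels are CPM after TMM scaling, while summed marker lists, pooled sets of spots and ratios under equal zone shares use the plain total of UMIs.

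Each spot was assigned to the zone whose marker list, none holding any of the 7 genes, scored highest over the spot and its neighbours. The lists were led by Slc34a1 (cortex zone), Slc7a13 (outer stripe zone), Umod and Slc12a1 (inner stripe zone), Aqp2 (Aqp2 zone) and uroplakins (pelvis zone). The Aqp2 list was drawn up for inner medulla, but that name did not hold for all sections. In normal sections the Aqp2 zone lay around the pelvic space, and 65.8% and 82.9% of its 149 and 205 spots held at least 1 pelvis marker count. In ischemic sections 229 and 296 spots were assigned to it, 5.68% and 15.9% of them with such a count, and they were interspersed with the inner stripe zone. Sptssb, one of the genes of the Aqp2 list, stood at 57.3 and 182 CPM of the zone's UMIs in normal sections and at 0.884 and 0.418 CPM in ischemic sections. The Aqp2 zone differed from the inner stripe zone in 1097 of 14256 genes in normal sections and in 1 gene in ischemic sections. Sptssb was also lower in the pelvis zone, at 448 and 550 CPM in normal and 56.5 and 87.2 CPM in ischemic sections. For every result by condition the cutting plane, the number of cells of a type and the RNA per cell cannot be told apart.

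**Figure D1:**
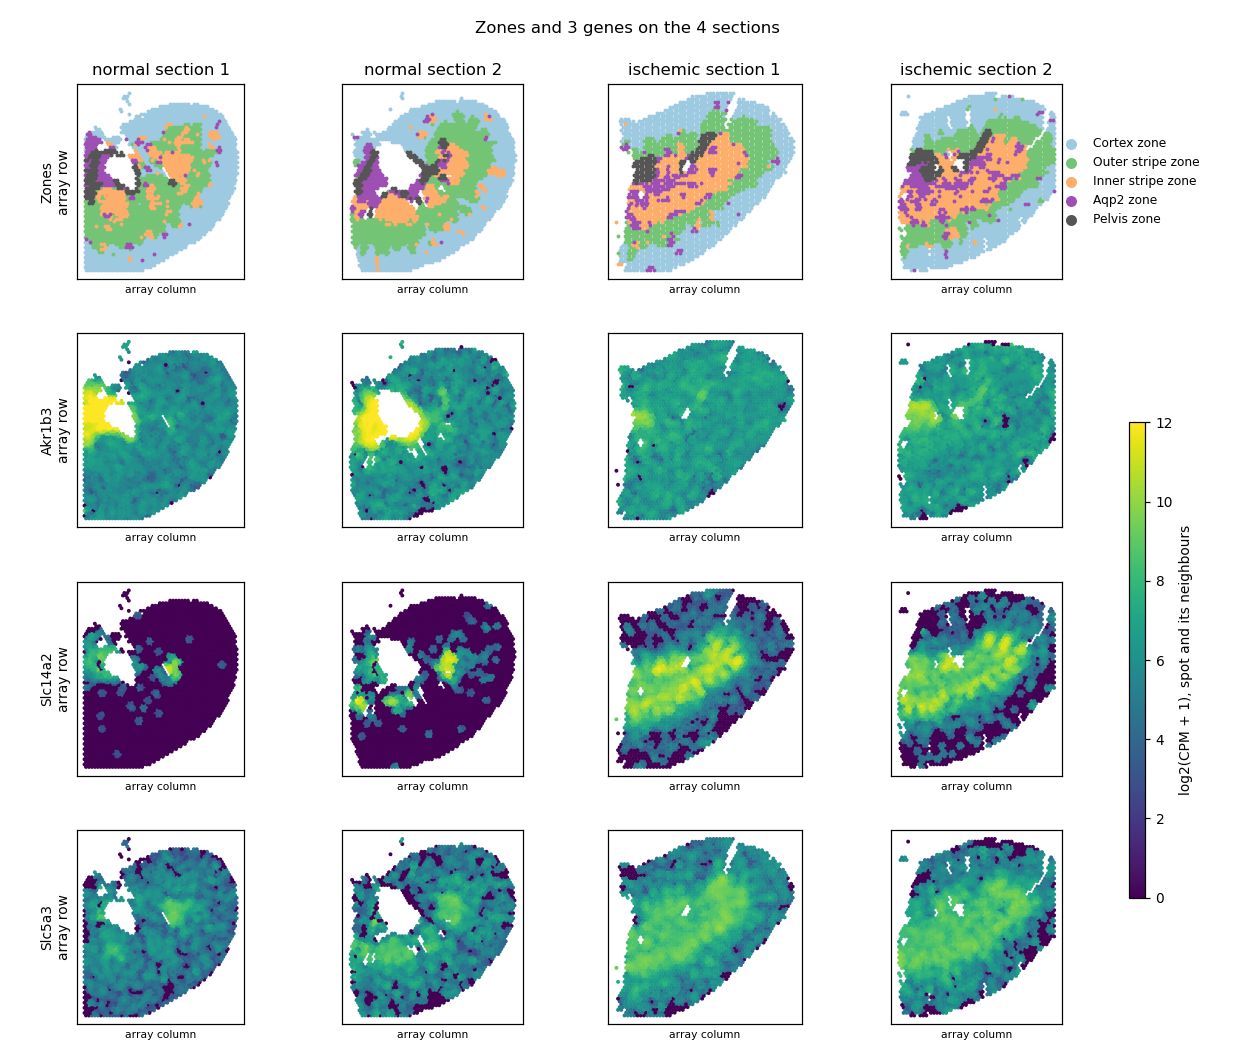
Position of each spot on the array (column and row, no unit) in the 4 sections: zone in the top row, then Akr1b3, Slc14a2 and Slc5a3 as log2(CPM + 1) pooled over the spot and its neighbours, with values above 12 drawn at 12. Akr1b3 was high around the pelvic space of the normal sections, and Slc14a2 filled a wide medullary band in the ischemic sections but small patches in the normal ones.

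In whole sections, Slc14a2, Slc5a3 and Nfat5 were higher and Akr1b3 and Slc6a6 lower in ischemic than in normal kidneys. Slc14a1 and Slc6a12 did not pass the test. These 5 of 7 calls stood against a background in which 60.6% of the 15305 genes tested were called, 31% higher and 29.7% lower. With total-count scaling, which moved the median of all genes to 0.31, 5750 genes were higher and 2829 lower, against 4737 and 4542 with TMM. A count of 5 of 7 is close to that background. The sizes differed widely between the genes, with a median log2 change of 0.58 over the 7 genes and 0.04 over all genes tested.

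**Figure D2:**
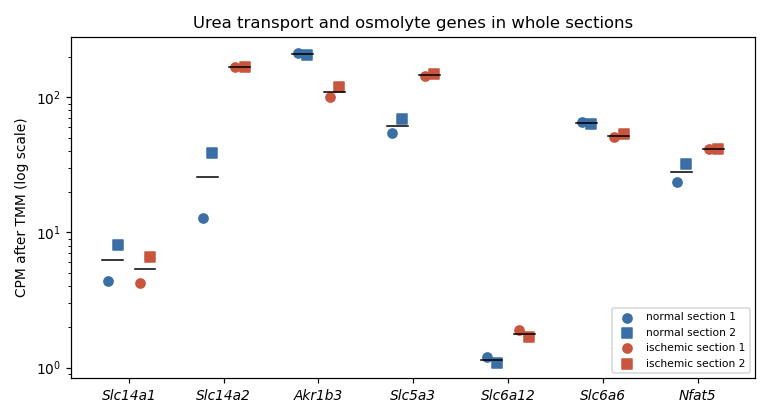
CPM after TMM scaling on a log axis for the 7 genes, 1 point per section (blue normal, red ischemic, circle section 1, square section 2), with a black bar at the mean of each condition. The ischemic points of Slc14a2 and Slc5a3 lay above both normal points, and those of Akr1b3 lay below both normal points.

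Slc14a2 showed the largest change of the 7 genes. On mm10 it spans chr18:78146148-78596942 on the minus strand, beside Slc14a1 at chr18:78100091-78142119. Its level was 12.7 and 38.5 CPM in the normal sections and 168 and 169 CPM in the ischemic sections, or 25.6 ± 18.2 against 168 ± 0.465 CPM (mean ± SD, n = 2 sections each). The groups did not overlap, and the normal sections differed from each other more than the ischemic ones did. The change was 2.73 on the log2 scale (SE 0.39, edgeR adjusted p = 0.000304). Leaving out 1 section at a time gave values from 2.14 (without normal section 1) to 3.70 (without normal section 2), all past the threshold.

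At least 1 Slc14a2 UMI was found in 5.73% and 7.98% of normal spots and in 43.6% and 41.2% of ischemic spots. With every spot thinned to 2000 UMIs, these shares were 2.10% and 3.71% against 20.9% and 21.8%, and the groups stayed apart at equal depth. When each section was given the same share of UMIs in every zone, the ratio of the condition means was 5.04, against 7.56 with the zones as they were cut.

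Slc5a3, the myo-inositol carrier, measured 54.1 and 69.4 CPM in normal and 145 and 149 CPM in ischemic sections (61.8 ± 10.8 against 147 ± 2.76 CPM, n = 2 each). All ischemic values lay above the normal ones. Its log2 change was 1.25 (SE 0.13, edgeR adjusted p = 5.40e-05). Under equal zone shares the ratio of the means was 2.30, against 2.83 as cut. Mrps6, with which it shares exon bases, changed by 0.53 (SE 0.13, edgeR adjusted p = 0.0077).

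Akr1b3, the sorbitol-forming enzyme, moved the other way. It measured 214 and 206 CPM in normal sections and 100.4 and 119.9 CPM in ischemic sections (210 ± 5.58 against 110 ± 13.8 CPM, n = 2 each). The groups were apart by more than the spread within either. The gene fell by 0.93 on the log2 scale (SE 0.13, edgeR adjusted p = 0.00023). Under equal zone shares the ratio of ischemic to normal means was 0.513, against 0.632 as cut.

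Nfat5 rose less. Its levels were 23.8 and 32.4 CPM in normal and 41.8 and 41.8 CPM in ischemic sections, a log2 change of 0.58 (SE 0.14, edgeR adjusted p = 0.00535) with no overlap of the groups. The taurine carrier Slc6a6 measured 65.9 and 63.2 CPM in normal and 50.6 and 53.4 CPM in ischemic sections and fell by 0.31 (SE 0.10, edgeR adjusted p = 0.0185). That call was lost under total-count scaling (log2 change -0.04, edgeR adjusted p = 0.783) and on leaving out ischemic section 1 (edgeR adjusted p = 0.302) or 2 (edgeR adjusted p = 0.173). The summed level of the proximal tubule list, whose cells also take up taurine, was 3252 and 3256 CPM in normal and 410 and 384 CPM in ischemic sections, with no marker at 0. The part of that list in the Slc6a6 value was not tested.

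Slc6a12, the betaine carrier, was rare, with 44 and 30 UMIs in the normal and 64 and 48 UMIs in the ischemic sections. These amount to 1.19 and 1.09 CPM against 1.88 and 1.68 CPM, without overlap. The difference of 0.64 (SE 0.25) had an edgeR adjusted p of 0.0531 and so missed the threshold. It passed without the filter on low counts (edgeR adjusted p = 0.0438) and with total-count scaling (edgeR adjusted p = 0.0384).

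Slc14a1 measured 4.39 and 8.04 CPM in normal and 4.21 and 6.60 CPM in ischemic sections, so the groups overlapped. Its difference of -0.19 (SE 0.30, edgeR adjusted p = 0.594) turned to 0.25 without normal section 2, to 0.11 without ischemic section 1 and to 0.04 with total-count scaling. Without normal section 1 it was -0.58 and passed the threshold (edgeR adjusted p = 0.000504). Red blood cells carry UT-B, and the red cell list summed to 8905 and 9055 CPM in normal and 765 and 1618 CPM in ischemic sections, with none of its 5 genes at 0. Endothelial markers summed to 254 and 331 against 400.0 and 443 CPM. The part of either, or of urothelial cells, in the Slc14a1 values was not tested.

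The zones of the normal sections showed which of the 7 genes were medullary. Against the cortex zone, the Aqp2 zone was higher in 6 of the 7 genes and lower in Slc6a6, in a background where 26.5% of 14256 genes were called, 13.5% higher and 13% lower. Akr1b3 was high in the innermost zones. It measured 77.0 and 68.6 CPM in the cortex zone, 83.3 and 90.6 CPM in the outer stripe zone, 87.5 and 94.7 CPM in the inner stripe zone, 1651 and 1252 CPM in the Aqp2 zone and 2227 and 1183 CPM in the pelvis zone. Its step from inner stripe to Aqp2 zone was 3.99 on the log2 scale (SE 0.29, edgeR adjusted p = 3.28e-07), while the 3 outer zones did not differ from each other past the threshold, nor did the Aqp2 and pelvis zones (0.23, SE 0.25, edgeR adjusted p = 0.695). In the normal sections, 69.0% and 69.6% of all Akr1b3 UMIs came from the Aqp2 and pelvis zones, which held 6.39% and 9.97% of all UMIs.

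Slc14a2 was also medullary but spread differently. It measured 0.712 and 1.90 CPM in the cortex zone, 2.34 and 6.23 in the outer stripe zone, 51.1 and 201 in the inner stripe zone, 65.4 and 164 in the Aqp2 zone and 75.9 and 69.6 in the pelvis zone. The inner stripe, Aqp2 and pelvis zones did not differ past the threshold, and each lay above the cortex and outer stripe zones. In the inner stripe zone its UMIs came from a minority of the spots, since 7.36% and 19.6% of those spots held the gene.

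Slc5a3 peaked one step further out, in the inner stripe zone. Its normal levels were 155 and 233 CPM there, 75.0 and 92.1 in the Aqp2 zone, 63.3 and 79.5 in the outer stripe zone, 42.8 and 52.5 in the pelvis zone and 30.2 and 31.8 in the cortex zone. The inner stripe level was above the Aqp2 zone by 1.21 (the Aqp2 zone against the inner stripe zone was -1.21, SE 0.20, edgeR adjusted p = 0.00094). The Aqp2 and outer stripe zones, neighbours in this order, did not differ past the threshold (0.23, SE 0.20, edgeR adjusted p = 0.414).

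Slc14a1 was highest in the pelvis zone, at 52.5 and 51.9 CPM, followed by the Aqp2 zone at 15.6 and 37.8 CPM and the inner stripe zone at 7.98 and 16.4 CPM. The pelvis and Aqp2 zones did not differ past the threshold (0.94, SE 0.37, edgeR adjusted p = 0.173). The cortex zone held only 3 and 7 of its UMIs. Slc6a12 was found at 6.68 and 5.97 CPM in the Aqp2 zone and 3.66 and 3.22 CPM in the inner stripe zone, with 1 UMI in the cortex zone of either section. Nfat5 was expressed in all zones, from 21.8 and 26.7 CPM in the cortex zone to 46.0 and 91.5 CPM in the Aqp2 zone (1.52, SE 0.23, edgeR adjusted p = 0.000116).

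Slc6a6 went against the medullary pattern. It was highest in the outer stripe zone at 91.2 and 88.7 CPM and lowest in the Aqp2 and pelvis zones, at 43.1 and 36.5 CPM and at 29.0 and 38.2 CPM. The outer stripe zone lay above the cortex zone by 0.45 (SE 0.14, edgeR adjusted p = 0.0441), and the Aqp2 zone lay below the inner stripe zone (-0.99, SE 0.19, edgeR adjusted p = 0.00237). Of the 7 genes it was thus the one whose normal level was lower in the Aqp2 zone than in the cortex zone (-0.73, SE 0.18, edgeR adjusted p = 0.006). That difference lost its call under total-count scaling (-0.36, edgeR adjusted p = 0.202).

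Counted over the pairs of normal zones, the genes followed the background of each pair to different degrees. Against the cortex zone, 3 of the 7 genes differed in the outer stripe zone (14.3% of all genes), 5 in the inner stripe zone (21.1%) and 7 in the pelvis zone (42.6%). Against the outer stripe zone, 5 differed in the inner stripe zone (15.4%), 6 in the Aqp2 zone (30.9%) and 7 in the pelvis zone (44.7%). Akr1b3, Slc5a3 and Slc6a6 differed between Aqp2 and inner stripe zone (3 of 7, against 7.7%), 4 of 7 between pelvis and inner stripe zone (25.5%), and Slc5a3 between pelvis and Aqp2 zone (1 of 7, against 5.18%).

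The contrasts of the Aqp2 zone depended on spots with pelvis marker counts. When the spots with a pelvis marker count were taken out of the Aqp2 zone, 51 and 35 spots were left in the normal sections, and of the 7 genes only Slc5a3 still differed from the cortex zone past the threshold (1.64, edgeR adjusted p = 0.00763). The spots left in the normal sections held 1912 and 1950 CPM of Slc34a1, the phosphate carrier of the proximal tubule, against 100.2 and 57.1 CPM in the ischemic sections. In normal section 1 those spots held 1.65 CPM of Slc14a2.

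**Figure D3:**
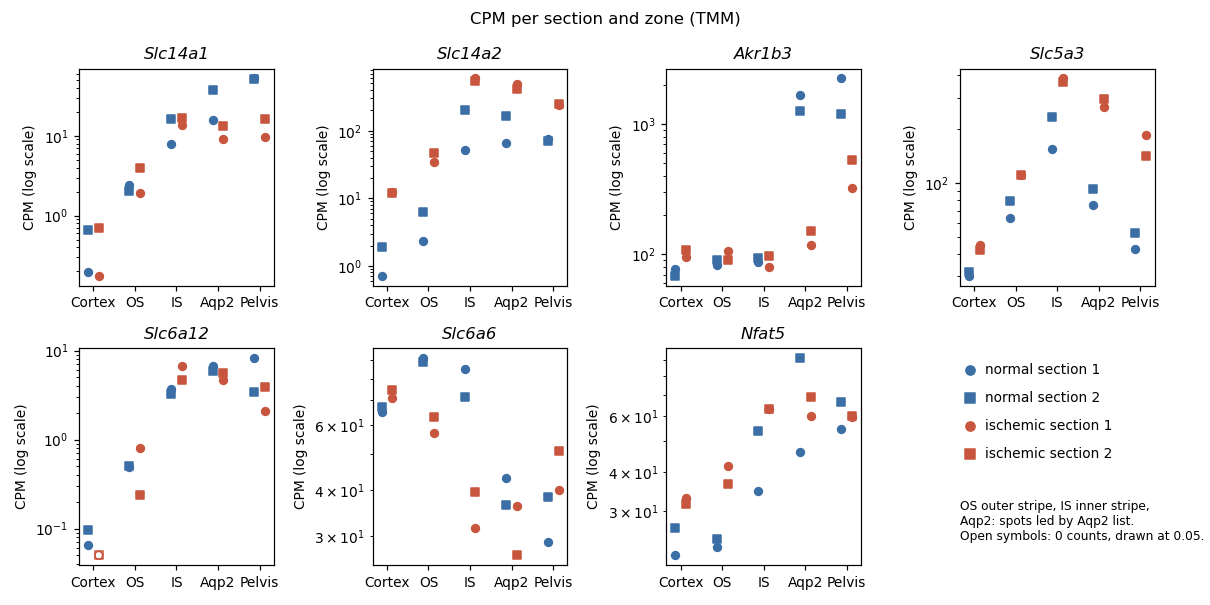
CPM after TMM scaling on log axes for each gene (panels) in the cortex, outer stripe (OS), inner stripe (IS), Aqp2 and pelvis zones, 1 point per section (blue normal, red ischemic, circle section 1, square section 2). Akr1b3 went from 87.5 and 94.7 CPM (inner stripe) to 1651 and 1252 CPM (Aqp2 zone) in normal and from 80.4 and 96.8 to 119 and 150 CPM in ischemic sections, Slc14a2 was higher in the ischemic sections in every zone, and the 2 open points of Slc6a12 in the cortex zone mark sections with 0 counts.

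Within the Aqp2 zone, 4 of the 7 genes differed between conditions, 2 higher and 2 lower, where 32.4% of 14256 genes were called, 13.8% higher and 18.5% lower. In the cortex zone 2 of 7 differed (39.2% of all genes called) and in the outer stripe zone 4 of 7 (56.7%). In the inner stripe zone 4 of 7 differed (48.1%) and in the pelvis zone 4 of 7 (24.4%). None of these counts, each out of only 7 genes, is read as standing clear of its background. In the Aqp2 zone Akr1b3 fell from 1651 and 1252 CPM to 119 and 150 CPM, a log2 change of -3.43 (SE 0.28, edgeR adjusted p = 8.07e-08). The groups were far apart, and the ischemic values lay close to those of the outer zones. In the pelvis zone, where 24.4% of genes were called, it fell from 2227 and 1183 CPM to 321 and 533 CPM (-2.0, SE 0.26, edgeR adjusted p = 3.53e-05). In the inner stripe zone it measured 80.4 and 96.8 CPM in ischemic sections, which overlapped the normal values (-0.04, SE 0.26, edgeR adjusted p = 0.917). The ischemic cortex zone, at 95.2 and 107 CPM, lay above the normal one without passing the test (0.47, SE 0.26, edgeR adjusted p = 0.156).

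Other measures of the Aqp2 zone moved with Akr1b3. Principal cell markers in the Aqp2 zone summed to 3033 and 5812 CPM in normal and 1366 and 2352 CPM in ischemic sections, with none of the 6 genes at 0. Aqp2, Aqp3 and Fxyd4 belong to both this list and the list that set the zone, so the sum is not an independent measure of it. Without the spots that held a pelvis count, the change of Akr1b3 in the Aqp2 zone was -0.12 (edgeR adjusted p = 0.828). With the pelvis and Aqp2 zones joined it was -2.73 (SE 0.23, edgeR adjusted p = 3.59e-07), and over the 50 spots of each section with the highest Aqp2 list score it was -4.31 (SE 0.29, edgeR adjusted p = 1.84e-14). Among spots at or above 1000 CPM of pooled Aqp2 (183 and 302 normal, 74 and 277 ischemic), Akr1b3 stood at 3227 and 1725 CPM against 299 and 356 CPM of the spots' UMIs. Aqp2 itself stood at 4567 and 3341 against 2013 and 2020 CPM there, so there were 0.706 and 0.516 Akr1b3 UMIs per Aqp2 UMI in normal and 0.149 and 0.176 in ischemic sections. Sptssb still differed in these spots, at 282 and 245 against 25.2 and 14.7 CPM, and Upk1b, a urothelial gene, stood at 213 and 171 against 14.2 and 15.1 CPM. The part of either in the Akr1b3 values was not tested.

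Slc14a2 was higher in ischemic sections in all 5 zones. In the inner stripe zone, where 48.1% of all genes were called, it rose from 51.1 and 201 CPM to 594 and 537 CPM (2.18, SE 0.46, edgeR adjusted p = 0.00067). The ischemic values were well above both normal ones, which differed from each other. The change was 1.55 without normal section 1 and 3.47 without normal section 2. Over the 50 spots of each section with the highest inner stripe score it was smaller, 354 and 262 CPM against 562 and 577 CPM (0.88, SE 0.27, edgeR adjusted p = 0.019).

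In the Aqp2 zone, Slc14a2 measured 65.4 and 164 CPM in normal and 492 and 410 CPM in ischemic sections (1.97, SE 0.47, edgeR adjusted p = 0.00361). That call was lost without ischemic section 1 (edgeR adjusted p = 0.0851) or 2 (edgeR adjusted p = 0.0584), and the change was 2.79 without normal section 2. In the pelvis zone it rose from 75.9 and 69.6 to 241 and 249 CPM (1.75, SE 0.49, edgeR adjusted p = 0.0135), a call lost without ischemic section 1 (edgeR adjusted p = 0.148) or 2 (edgeR adjusted p = 0.151). Among the Aqp2-matched spots it stood at 117 and 139 against 430 and 448 CPM.

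The outer zones held little Slc14a2. In the outer stripe zone it rose from 2.34 and 6.23 to 34.2 and 47.2 CPM (3.29, SE 0.55, edgeR adjusted p = 5.80e-05), where 56.7% of genes were called. In the cortex zone it rose from 0.712 and 1.90 to 12.3 and 12.2 CPM (3.30, SE 0.65, edgeR adjusted p = 0.000561), where 39.2% were called. The cortex zone held 2.34% and 1.88% of all Slc14a2 UMIs in normal and 2.47% and 2.17% in ischemic sections, a similar share in all 4 sections. The part of RNA from neighbouring tissue in it was not tested.

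Slc5a3 was likewise higher in ischemic sections in every zone. In the Aqp2 zone it measured 75.0 and 92.1 CPM in normal and 268 and 296 CPM in ischemic sections (1.75, SE 0.20, edgeR adjusted p = 3.97e-06). In the pelvis zone it rose from 42.8 and 52.5 to 187 and 141 CPM (1.77, SE 0.21, edgeR adjusted p = 1.33e-05). The inner stripe zone rose from 155 and 233 to 385 and 366 CPM (0.95, SE 0.18, edgeR adjusted p = 0.000324). Its difference over the 50-spot inner stripe cores was 0.29 (SE 0.20, edgeR adjusted p = 0.361), at 424 and 380 CPM in normal and 501 and 481 CPM in ischemic sections, so the call was lost there.

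Further out, Slc5a3 rose from 63.3 and 79.5 to 111 and 111 CPM in the outer stripe zone (0.64, SE 0.18, edgeR adjusted p = 0.0063) and from 30.2 and 31.8 to 44.9 and 42.4 CPM in the cortex zone (0.49, SE 0.19, edgeR adjusted p = 0.0463). Both calls were lost without ischemic section 1 or 2 and over the 50-spot cores (0.33, edgeR adjusted p = 0.343, and 0.22, edgeR adjusted p = 0.821). Of 18 alternative runs, 8 lost the cortex zone call and 3 the outer stripe zone call. The test of the difference between zones was passed by Akr1b3 and Slc5a3, 2 of 7 genes against 3.25% of all genes. The gap between Aqp2 and cortex zone changed with ischemia by -3.90 for Akr1b3 (SE 0.38, edgeR adjusted p = 1.70e-05) and by 1.26 for Slc5a3 (SE 0.28, edgeR adjusted p = 0.0161). For Slc14a2 that change was -1.34 (SE 0.82, edgeR adjusted p = 0.446). The Slc5a3 call was lost without either ischemic section.

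**Figure D4:**
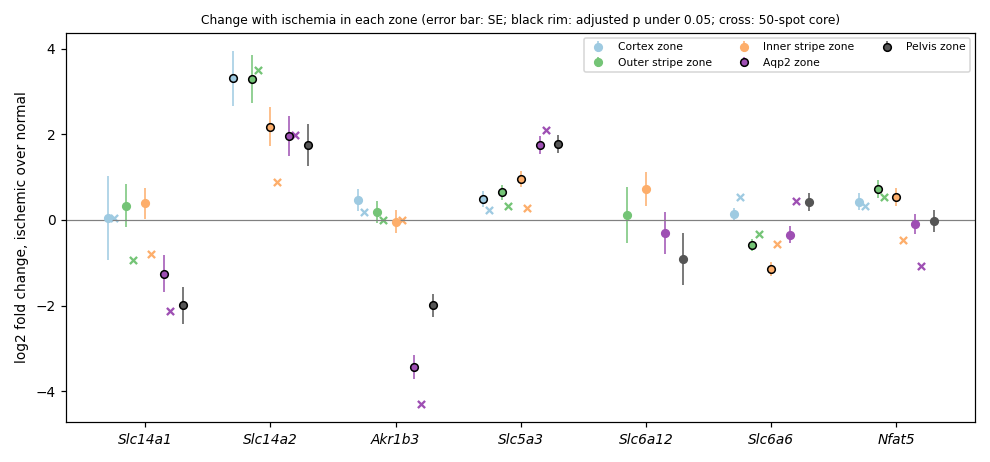
log2 fold change of ischemic over normal sections for the 7 genes in each zone, with SE bars and a black rim where the edgeR adjusted p was under 0.05. Crosses give the change over the 50 spots of each zone with the highest list score, which lay nearer to 0 than the whole zone for Slc14a2 and Slc5a3 in the inner stripe; no point is drawn where all sections of a condition were at 0.

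Slc14a1 was lower in the ischemic pelvis zone, at 9.68 and 16.3 CPM against 52.5 and 51.9 CPM (-2.0, SE 0.42, edgeR adjusted p = 0.00219), with no overlap. That call was lost without ischemic section 1 (-1.67, edgeR adjusted p = 0.0844). In the Aqp2 zone it measured 15.6 and 37.8 CPM in normal and 9.24 and 13.3 CPM in ischemic sections (-1.26, SE 0.43, edgeR adjusted p = 0.0336). The call was lost without normal section 2 (-0.45, edgeR adjusted p = 0.496) or without either ischemic section (edgeR adjusted p = 0.211 and 0.098), and the difference was 0.01 where zones were set from each spot alone. In the inner stripe zone its values overlapped, at 7.98 and 16.4 against 13.8 and 16.8 CPM. Red cell markers summed to 25967 and 15117 CPM in the normal Aqp2 zone and to 617 and 787 CPM in the ischemic one. In the pelvis zone they summed to 8334 and 7348 CPM in normal and 2016 and 6737 CPM in ischemic sections. The list that set the pelvis zone was led by uroplakins. Upk1b, a urothelial gene, stood at 213 and 171 CPM in normal and 14.2 and 15.1 CPM in ischemic Aqp2-matched spots. The part of red cells or of urothelial cells in the Slc14a1 values was not tested.

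Slc6a6 was lower in the ischemic inner stripe zone, at 31.5 and 39.5 CPM against 84.9 and 71.5 CPM (-1.15, SE 0.16, edgeR adjusted p = 1.11e-05), and in the outer stripe zone, at 57.2 and 62.9 CPM against 91.2 and 88.7 CPM (-0.58, SE 0.15, edgeR adjusted p = 0.00228). In the cortex zone it measured 64.9 and 66.9 CPM in normal and 70.8 and 74.5 CPM in ischemic sections (0.14, SE 0.14, edgeR adjusted p = 0.473). Proximal tubule markers summed to 1517 and 1254 CPM in the normal inner stripe zone and to 79.7 and 79.9 CPM in the ischemic one. In the cortex zone they went from 4844 and 4903 CPM to 742 and 747 CPM. The part of these markers in the Slc6a6 values was not tested. The inner stripe call was lost over the 50-spot cores (-0.55, edgeR adjusted p = 0.243), and the outer stripe call there (-0.32, edgeR adjusted p = 0.285), under total-count scaling (-0.19, edgeR adjusted p = 0.369) and without ischemic section 1 (-0.50, edgeR adjusted p = 0.0726).

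Nfat5 rose in the outer stripe zone, from 23.2 and 24.5 to 41.8 and 36.7 CPM (0.72, SE 0.21, edgeR adjusted p = 0.00649). That call was lost without ischemic section 1 (edgeR adjusted p = 0.151) or 2 (edgeR adjusted p = 0.0613) and over the 50-spot cores (0.54, edgeR adjusted p = 0.283). It also passed in the inner stripe zone, from 34.7 and 53.8 to 63.1 and 63.2 CPM (0.54, SE 0.21, edgeR adjusted p = 0.0459). The inner stripe call was lost with DESeq2 (adjusted p = 0.0902), with RLE factors (edgeR adjusted p = 0.0568), without normal section 1 (0.29, edgeR adjusted p = 0.109), without ischemic section 1 (edgeR adjusted p = 0.252) or 2 (edgeR adjusted p = 0.239), with zones from the spot alone (edgeR adjusted p = 0.158) and without spots near a boundary (edgeR adjusted p = 0.125). Over the 50-spot cores it turned to -0.47 (edgeR adjusted p = 0.323). In the Aqp2 zone the groups overlapped, at 46.0 and 91.5 against 60.1 and 69.0 CPM (-0.10, SE 0.24, edgeR adjusted p = 0.781), and over the cores of that zone Nfat5 was lower in ischemic sections (-1.08, SE 0.29, edgeR adjusted p = 0.00658). Without the Aqp2 zone spots that held a pelvis count, its change was 1.53, in the other direction. The Slc6a12 differences in the medullary zones missed the threshold. In the inner stripe zone it measured 3.66 and 3.22 CPM in normal and 6.76 and 4.63 CPM in ischemic sections (0.72, SE 0.40, edgeR adjusted p = 0.145), and in the Aqp2 zone 6.68 and 5.97 against 4.62 and 5.6 CPM. The ischemic cortex zones held 0 Slc6a12 UMIs of 12216932 and of 9199245, which allows levels of up to 0.246 and 0.326 CPM, so no fold was taken there. These limits and the shares of spots cover counting error only.

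Within the ischemic sections, 6 of the 7 genes differed between Aqp2 and cortex zone (33.3% of all genes) and 6 between inner stripe and cortex zone (42.8%), Akr1b3 being the exception in both. Between pelvis and Aqp2 zone, 2 of 7 differed (1.52%). Its pelvis zone lay above the Aqp2 zone by 1.67 (SE 0.27, edgeR adjusted p = 0.00181), and the Aqp2 zone did not differ from the cortex zone past the threshold (0.41, SE 0.26, edgeR adjusted p = 0.244). Over the 50-spot cores, however, ischemic Akr1b3 measured 140 and 321 CPM in the Aqp2 zone against 89.8 and 86.3 CPM in the inner stripe zone (1.37, SE 0.32, edgeR adjusted p = 0.0349) and 73.5 and 71.1 CPM in the cortex zone (1.66, SE 0.33, edgeR adjusted p = 0.00014). With the Aqp2 and pelvis zones joined, the difference from the cortex zone was 1.22 (SE 0.22, edgeR adjusted p = 0.000397). Slc14a2 and Slc5a3 were lowest in the cortex zone and highest in the inner stripe zone, and the 1 gene called between inner stripe and Aqp2 zone (0.00701% of 14256) was neither of them. Slc6a6 was highest in the cortex zone, which lay above the inner stripe zone (the inner stripe against the cortex zone was -1.04, SE 0.16, edgeR adjusted p = 3.10e-05).

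Other genes of urine concentration and of osmolyte handling were read from lists of 7, 13, 4 and 4 genes, all of them tested in whole sections, where 60.6% of all genes were called, 31% higher and 29.7% lower. Nothing particular to the lists is read from their counts. In the urine concentration list, 1 gene rose, 4 fell and 2 did not pass, with a median log2 change of -0.62 (5 of 7 called, against 60.6% of all genes). Arg2, the arginase that forms urea outside the liver, rose from 8.72 ± 1.3 to 90.8 ± 2.68 CPM (3.39, SE 0.12, edgeR adjusted p = 1.50e-07). Aqp1, the water channel of the proximal tubule and the thin descending limb, fell from 609 ± 89.7 to 136 ± 29.5 CPM (-2.16, SE 0.19, edgeR adjusted p = 1.32e-05). Avpr2, the vasopressin receptor of the collecting duct, fell from 27.1 ± 1.78 to 13.3 ± 1.35 CPM (-1.03, SE 0.11, edgeR adjusted p = 4.99e-05).

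Of the genes that make or break down osmolytes, 1 rose, 8 fell and 4 did not pass, with a median of -0.80 (9 of 13 called, against 60.6% of all genes). Isyna1, which makes myo-inositol from glucose 6-phosphate, rose from 65.4 ± 6.51 to 146 ± 2.92 CPM (1.16, SE 0.12, edgeR adjusted p = 3.26e-05). Miox, which breaks myo-inositol down in the proximal tubule, fell from 1614 ± 352 to 113 ± 8.43 CPM (-3.84, SE 0.20, edgeR adjusted p = 8.04e-07). Bhmt, which uses betaine to methylate homocysteine, fell from 2.96 ± 0.801 to 0.166 ± 0.110 CPM (-4.18, SE 0.43, edgeR adjusted p = 4.02e-05). The fall of the proximal tubule list given above stands beside these values, and its part in them was not tested.

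Among the 4 other osmolyte carriers, 3 rose and 1 fell, against 31% of all genes higher and 29.7% lower. Slc38a2, an amino acid carrier, rose by 1.53 (SE 0.14, edgeR adjusted p = 2.22e-05) and Slc44a1, a choline carrier, by 0.82 (SE 0.11, edgeR adjusted p = 0.000252). Slc5a11, a second myo-inositol carrier, fell by 2.05 (SE 0.15, edgeR adjusted p = 6.00e-06), opposite to Slc5a3. In the list of tonicity-responsive chaperones and the kinase Sgk1, 2 genes rose in whole sections and 2 did not pass. They were Hspa1b (0.80, SE 0.23, edgeR adjusted p = 0.0141) and Hspa4l (0.55, SE 0.11, edgeR adjusted p = 0.00186). Hspa1b and Hspa1a are near-identical copies whose counts can be split in an uncertain way, and Hspa1a stood at -0.05. By zone the direction of this list varied. In the Aqp2 zone 0 of its 4 genes rose and 2 fell (32.4% of all genes called). In the pelvis zone 0 rose and 3 fell (24.4%). The outer stripe zone had 3 rises and 0 falls (56.7%), the inner stripe zone 1 and 0 (48.1%) and the cortex zone 1 and 1 (39.2%).

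**Figure D5:**
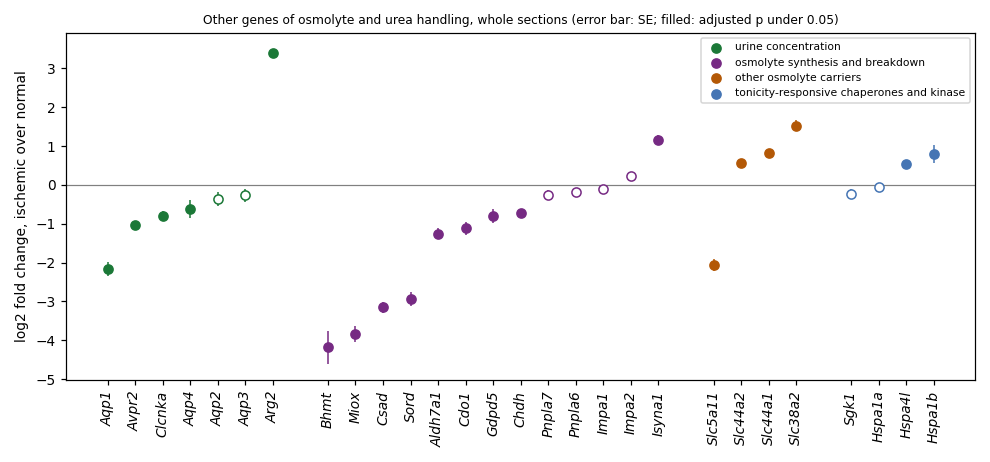
log2 fold change of ischemic over normal whole sections for the genes of the 4 lists, with SE bars, filled where the edgeR adjusted p was under 0.05. Arg2 at 3.39 was the highest point and Bhmt at -4.18 the lowest.

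Over the 20 sums of section and zone, which share 4 sections, the 7 genes fell into different patterns. Slc14a2 and Nfat5 moved together on the log2 scale (Pearson r = 0.908), as did Slc14a1 and Slc6a12 (0.92) and Slc14a2 and Slc5a3 (0.835). Akr1b3 and Slc5a3 did not (-0.184), and Slc6a6 ran opposite to Nfat5 (-0.823). The genes most like Slc14a2 were Cldn15 (0.970), Stap2 (0.965) and Hoxa11 (0.964), and those most like Akr1b3 were Itm2c (0.973), 4933407L21Rik (0.960) and Riiad1 (0.959). Slc5a3 was most like Mrps6 (0.963), the gene it shares exon bases with, then Fam43a (0.953) and Pfkp (0.952). For Slc14a1 they were Fam174b (0.958), 4930523C07Rik (0.957) and Utrn (0.955), and for Slc6a12 Utrn (0.949), Ctnnal1 (0.931) and Wnt7b (0.930). For Slc6a6 they were Sult1d1 (0.914), Them4 (0.913) and Pdss1 (0.902), and for Nfat5 Mpzl1 (0.964), Grhl2 (0.949) and Dsp (0.947).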

How the data were processed

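Visium libraries of 4 mouse kidney sections were analysed from raw UMI counts per spot and gene. The authors made these deposited counts with Space Ranger (1.3.0 per the file headers) against mm10 (per the submitters' processing notes), and the values were neither normalised nor filtered. Only barcodes over tissue were used. Spot scores were log2(CPM + 1) of a spot and up to 6 neighbours, averaged over each list and standardised within the section. A spot joined the pelvis zone at 10 or more pooled pelvis counts within the top 5% of the section. Zones needed 20 spots.

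Counts were summed per section, or per section and zone, and fitted in edgeR 4.0.16 (R 4.3.3) with TMM scaling, the filterByExpr filter and the quasi-likelihood test, with p-values adjusted by Benjamini-Hochberg over all genes tested and a threshold of 0.05, by condition, or by condition and zone. Zones of 1 section share that section, but the zone fits held no term for the section. Leaving 1 section out of 2 leaves a lone section assumed to vary like the others. DESeq2 1.42.0, other scalings, filters, zone rules and the equal cores, joined zones, Aqp2-matched spots and equal zone shares (these last 4 chosen after seeing the data) were alternatives. On simulated counts for the whole-section comparison (15305 genes), edgeR recovered 195 of 200 genes changed 4-fold with 6 false calls, and for the Aqp2 zone (14256 genes) 178 of 200 with 9.

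The 7 genes, the marker and pathway lists and the tests were chosen with earlier results of these data known. Besides the 7 genes, the text names Havcr1 and Lcn2, at most the 2 largest rises and 2 largest falls past the threshold in each list, and the 3 genes best correlated with each member (log2 CPM, prior count 2). Aqp2, Sptssb, Upk1b, Slc34a1, Mrps6 and Hspa1a were named after their values were seen. The depth of a section was 25957128 to 44528078 UMIs, so a count of 0 (limit 3 counts) allows 0.0674 to 0.116 CPM in a whole section. Replicate numbers did not pair the sections, which carry no shared animal or batch in the labels.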

Additional observations from a re-analysis of the deposited data

Results flagged for a closer look

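Akr1b3 and Slc5a3 stood out because the test of the difference itself was passed between zones. The gap of Akr1b3 between Aqp2 and cortex zone changed by -3.90 on the log2 scale with ischemia (SE 0.38, edgeR adjusted p = 1.70e-05), with changes of -3.43 in the Aqp2 zone and 0.47 in the cortex zone. Without spots that held a pelvis count it was -0.59 (edgeR adjusted p = 0.51). The gap of Slc5a3 changed by 1.26 (SE 0.28, edgeR adjusted p = 0.0161), with changes of 1.75 and 0.49. Without those spots it was 1.10 (edgeR adjusted p = 0.0941), and it also missed the threshold without ischemic section 1 (edgeR adjusted p = 0.224) or 2 (edgeR adjusted p = 0.481). With only 2 sections per condition, no section was tested as standing apart from its group.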

How the results depend on the processing

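Of 1189 alternative values for the 7 genes, 1049 kept their direction and their side of the threshold, 60 lost the call, 31 gained one and 49 changed sign, 5 of these from a called result. Of the 49 that changed sign, 2 passed the threshold in the new direction. The whole-section calls of Slc14a2, Slc5a3 and Akr1b3 kept their direction in every alternative run. The causes of the changes below were not tested. Counts of the 7 genes called below show only how stable the calls were. They are not read as results about the genes. Depth limits Slc6a12 and the cortical Slc14a1, with few UMIs per zone, and having 2 sections per condition limits every comparison.

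With DESeq2, 1 of the 7 genes was called in the cortex zone in place of 2, and Slc14a1 stood at -0.043 there. With RLE factors these were 1 and -0.029. Over all genes, 2219 were higher and 2939 lower there with DESeq2. With RLE factors 2366 were higher and 3210 lower, in place of 2821 and 2773. Without the filter on low counts, whole-section Slc6a12 was 0.66 and called, Akr1b3 in the inner stripe zone 0.041 and Nfat5 in the pelvis zone 0.014. Between Aqp2 and inner stripe zone in normal sections 5 of the 7 genes were then called, in place of 3. Over all genes, 936 were higher and 751 lower of 21330 in that comparison, in place of 735 and 362 of 14256. With total-count scaling, whole-section Slc14a1 was 0.040, Slc6a12 0.92 and Slc6a6 -0.041. Akr1b3 in the inner stripe zone was 0.28, and Nfat5 was 0.014 in the Aqp2 zone and 0.074 in the pelvis zone. For the change of the zone gap 1 of the 7 genes passed in place of 2. Over all genes, 62 were higher and 356 lower for that change, in place of 133 and 330. That scaling moved the calls over all genes to 3349 higher and 1634 lower from 2821 and 2773 in the cortex zone, to 5518 and 2450 from 3920 and 4164 in the outer stripe zone and to 4589 and 2366 from 3183 and 3679 in the inner stripe zone.

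With the replicate number as a block, whole-section Slc6a12 was 0.64 and called, and 5197 genes were called higher and 4892 lower, in place of 4737 and 4542. The sections share only a number: the 2 pairs' deviations correlated at 0.162, so the pairing was not used.

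Leaving out 1 section at a time gave, for whole sections, -0.58 to 0.25 for Slc14a1 and -0.37 to -0.26 for Slc6a6. Slc14a1 ranged from -1.06 to 0.97 in the cortex zone, -0.22 to 0.81 in the outer stripe zone and -0.048 to 0.93 in the inner stripe zone. Akr1b3 in the inner stripe zone ranged from -0.17 to 0.091, Nfat5 from -0.44 to 0.50 in the Aqp2 zone and from -0.093 to 0.13 in the pelvis zone, Slc6a12 in the outer stripe zone from -0.99 to 0.68, and Slc14a2 between Aqp2 and inner stripe zone of normal sections from -0.32 to 0.34. Members called were 1 to 3 in the cortex zone, 1 to 4 in the outer stripe zone, 2 to 5 in the Aqp2 zone, 2 to 4 in the pelvis zone, 3 to 5 between normal Aqp2 and inner stripe zone and 1 to 2 for the change of the zone gap. For the zones by condition and the zone gap the lowest counts came without ischemic section 1, equalled without ischemic section 2 in the cortex and Aqp2 zones and the zone gap. Over all genes the calls were 2453 to 6893 in the cortex zone, 4156 to 7457 in the inner stripe zone, 1986 to 4509 in the Aqp2 zone, 1052 to 3512 in the pelvis zone, 1787 to 3877 for inner stripe and 2421 to 3959 for Aqp2 against cortex zone, 488 to 1125 for Aqp2 against inner stripe zone and 17 to 1286 for the change of the zone gap, against 5594, 6862, 4616, 3472, 3007, 3774, 1097 and 463.

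With zones from the spot alone, Akr1b3 was 0.16 in the inner stripe zone, Slc14a1 0.011, Slc6a12 0.11 and Nfat5 0.20 in the Aqp2 zone and Slc6a6 -0.026 between normal inner stripe and cortex zone, with 2 genes called in the pelvis zone and 1 for the change of the zone gap. With the list Aqp2, Fxyd4 and Cryab, 1 gene was called in the cortex zone (over all genes 2803 higher and 2757 lower) and Akr1b3 was 0.036 in the inner stripe zone. With an earlier list that holds Slc14a2 and Akr1b3, and is thus circular for them, these were 1 and 0.020, and between normal Aqp2 and inner stripe zone 5 genes were called and Slc14a2 was 1.40. Without spots near a zone boundary, Slc14a1 was -0.20 in the cortex zone, Akr1b3 0.017 in the inner stripe zone and Slc6a6 0.050 in the Aqp2 zone, with 5 genes called between normal Aqp2 and inner stripe zone.

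Without the spots that held a pelvis count, the Aqp2 zone differed between conditions by 1.86 for Slc14a1, 7.68 for Slc6a12 and 1.53 for Nfat5. The Slc6a12 value here and those below missed the threshold and are not read as folds. Even the whole normal Aqp2 zone held only 9 Slc6a12 UMIs in either section. Against the normal cortex zone 1 gene was called, with Slc6a12 at -2.17 and Nfat5 at -0.15, and 86 of all genes. Against the normal inner stripe zone 0 were called by edgeR, with Slc14a1 at -1.98, Slc6a12 at -7.31 and Nfat5 at -0.99, and 112 of all genes. For the change of the zone gap 0 were called, with Slc14a1 at 1.82, Slc14a2 at 0.55 and Nfat5 at 1.11. Over equal cores of 50 spots, 1 gene was called in each of the cortex, outer stripe and inner stripe zones. Slc14a1 was -0.93 and Akr1b3 -0.0080 in the outer stripe zone, Slc14a1 -0.79, Akr1b3 0.0081 and Nfat5 -0.47 in the inner stripe zone and Slc6a6 0.45 in the Aqp2 zone, with 6 genes called between normal Aqp2 and inner stripe zone. The cores gave 1251, 3406, 1728 and 1583 calls over all genes in the cortex, outer stripe, inner stripe and Aqp2 zones.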
